A study of Homo sapiens with 12 samples.

Results

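The clustered protocadherin genes were examined as a stretch of 750 kb on the long arm of human chromosome 5, chr5:140150001-140900000 on the genome build hg19. The cells were MDA-MB-231, an established line of triple negative breast cancer from a human tumour. Members were taken by position: every called interval that shared at least 1 base with this window was kept, and coverage was read in 75 steps of 10 kb, with 500 kb on each side (100 steps) as flanks. This gave 145 of the 416692 intervals in the 10 deposited lists. Of them 110 were H3K9ac peaks of single libraries, 15 were H3K9ac regions from the authors' sets of regions found reproducibly in a condition, and 20 were H3K9me2 islands of single libraries.

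H3K9ac, acetylation of lysine 9 of histone H3, marks active promoters and enhancers, and H3K9me2, dimethylation of the same residue, marks silent domains. All cells were of the same line, were grown in serum and serum starved overnight. They then received no treatment, or DETA/NO, which releases nitric oxide slowly, at 500 µM for 24 h, with 2 biological replicates per condition and mark. Whether the untreated cells received a vehicle is not given in the sources used here, and the line was not checked against its marker genes because no gene positions on hg19 were used. Called positions were deposited and not reads, so depth is unknown, and copy number was not measured.

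Protocadherins are adhesion proteins of the cadherin superfamily, best known in neurons, where each cell uses its own small choice of them as a surface identity by which its branches recognise and avoid themselves. In the alpha and gamma clusters each variable first exon has its own promoter and is spliced to constant exons shared by the whole cluster, while each beta gene is a single exon. A conserved element with the core letters CGCT lies in nearly all of these promoters and is part of a site bound by CTCF, which with cohesin links a promoter to distant enhancers. In the RefSeq table, on GRCh38.p14, the clusters follow each other in the order alpha, beta, gamma, with 15, 16 and 22 coding genes, 53 in all, from PCDHA1 to PCDHGC5. The only other coding genes among them are SLC25A2, a mitochondrial ornithine carrier, and TAF7, a subunit of the general transcription factor TFIID, both between the beta and the gamma genes. The coding neighbours are ZMAT2 before and DIAPH1 after the clusters. That table is on another build than the lists, so no interval was assigned to a gene, and an interval in the window need not lie at a protocadherin start.

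The 4 core letters are shown first, without a search for the whole conserved element. Promoter sequences from RefSeq on GRCh38.p14 were found for 47 of the 53 genes, all on the plus strand. In the 250 bases before the start, 45 of the 47 held CGCT on the gene's own strand (95.7%), against 48.1% of 35093 promoters of the same length. Counting either strand (CGCT or AGCG, which can overlap in AGCGCT), the shares were 95.7% and 64.8%. All 20 gamma promoters held it, as did 12 of 13 alpha and 13 of 14 beta promoters. PCDHA9 and PCDHB8 were without it in this window. The copy nearest the start began a median of 48 bases before it. The median G and C content of the members was 37.6%, against 58% of all promoters in the table. The highest shares among the members were those of the C-type genes PCDHAC1, PCDHAC2, PCDHGC3 and PCDHGC4, at 63.2%, 62.4%, 60.0% and 57.6%. The 100 bases before the start are given for the first and last gene of each cluster that the table holds, 5′ to 3′, with CGCT in capitals.
PCDHA1: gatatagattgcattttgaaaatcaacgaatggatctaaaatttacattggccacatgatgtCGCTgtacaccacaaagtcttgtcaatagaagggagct
PCDHAC2: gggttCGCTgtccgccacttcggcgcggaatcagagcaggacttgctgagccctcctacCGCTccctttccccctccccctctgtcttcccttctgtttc
PCDHB1: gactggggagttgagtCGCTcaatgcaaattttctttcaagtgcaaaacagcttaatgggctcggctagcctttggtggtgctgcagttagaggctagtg
PCDHB15: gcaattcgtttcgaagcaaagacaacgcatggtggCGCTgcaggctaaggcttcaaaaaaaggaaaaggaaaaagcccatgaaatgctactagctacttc
PCDHGA1: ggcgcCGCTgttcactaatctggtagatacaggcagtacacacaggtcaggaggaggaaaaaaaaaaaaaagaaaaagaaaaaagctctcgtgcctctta
PCDHGC4: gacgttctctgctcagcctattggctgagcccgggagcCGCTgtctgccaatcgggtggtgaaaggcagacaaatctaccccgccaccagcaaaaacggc
CGCT appears 2 times in the stretch of PCDHAC2 and 1 time in the others. A match of 4 letters is a description of the sequence and not a measured binding site. It also does not show that a given promoter, among them those printed, holds the conserved element.

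The marks lay in different parts of the window. All 15 reproducible H3K9ac regions lay above base 140464293, so the lower 314.3 kb held none, whereas all 20 H3K9me2 islands ended at or below base 140548500, so the upper 351.5 kb held none in any of the 4 libraries. In the RefSeq order, lower positions are toward the alpha genes and higher positions toward the gamma genes. No reproducible region of either condition met an island of any library, and the smallest distance between them was 18.2 kb. The 15 regions marked only 10 separate places. The share of all reproducible regions of the genome that met an island is not given here. The separation is thus not shown to be particular to the window. The stretch between the lowest reproducible region, at 140464294 to 140464610, and the next, at 140566695, also held islands, at 140506001 to 140514000 and 140538001 to 140548500.

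**Figure D1:**
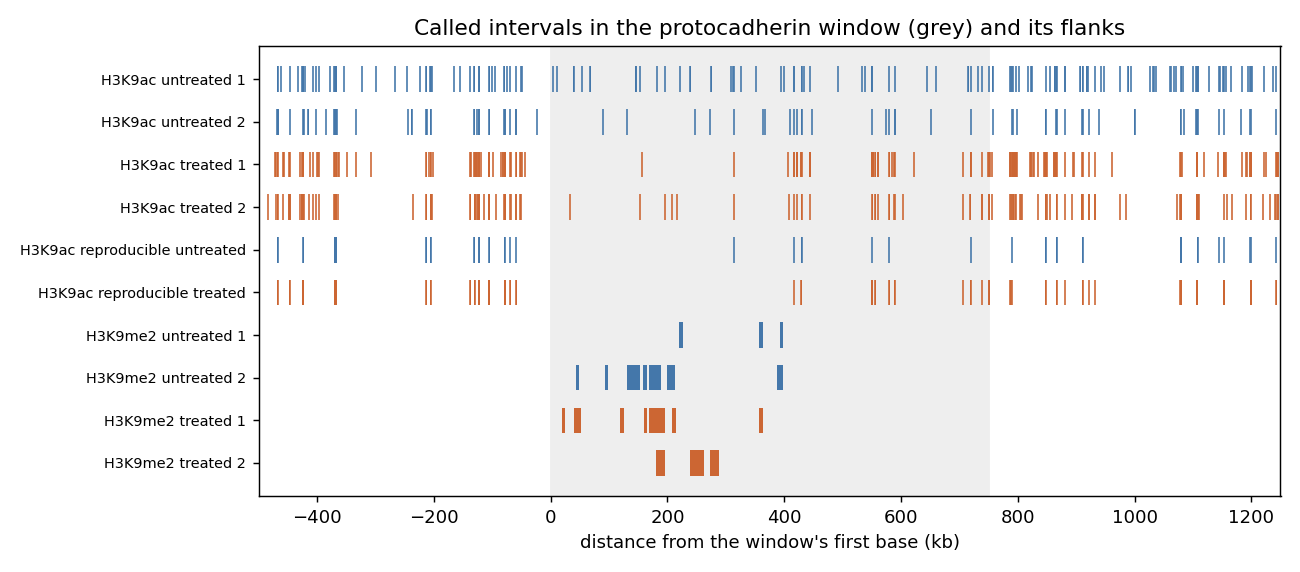
Called intervals by library (rows) against distance from the first base of the window in kb, with the window in grey and 500 kb flanks on each side. Intervals are drawn at least as wide as a thin line. H3K9me2 islands lie only in the lower 400 kb of the window, and reproducible H3K9ac regions are denser in both flanks than in the window.

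Single H3K9ac peaks were less clearly divided from H3K9me2 than the reproducible regions. The shares of all peaks of the genome that met an island are not given here. Untreated replicate 1 had 9 of its 38 peaks in an island of some H3K9me2 library, and untreated replicate 2 had 2 of 19. Treated replicate 1 had 0 of 31 and treated replicate 2 had 1 of 22. Counting only islands of the same condition, the numbers were 6, 0, 0 and 1 in this order. Islands of any library covered 168 kb of the 750 kb window. Within untreated replicate 1 the highest authors' score among the 9 peaks in an island of any library was 4.26. The highest of all its peaks in the window was 8.01. The peak scoring 4.26, at 140332294 to 140332618, lay in the stretch at 140331001 to 140338500 where 3 H3K9me2 libraries had an island. Median scores inside and outside islands were equal in untreated replicate 1, at 1.72. They were 1.395 and 1.3 in untreated replicate 2. In treated replicate 2 the only such peak scored 2.87, against a median of 3.21 outside.

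Against its flanks the window was poor in H3K9ac. Peaks covered 1.66% and 0.685% of the window in untreated replicates 1 and 2 and 1.66% and 1.09% in treated replicates 1 and 2. Over both flanks the shares were 4.90% and 2.79% untreated and 7.63% and 5.52% treated. Every library was thus lower in the window, with a mean window minus flanks of -3.94 percentage points (± 1.65, SD, n = 4 libraries, exact sign-flip permutation test, two-sided p = 0.12, the smallest that 4 libraries allow). The flanks had 2.96 and 4.08 times the share of the window without treatment and 4.60 and 5.09 times with it. The reproducible sets held 6 untreated and 9 treated regions in the window against 25 and 31 in the flanks. The window was not poor in H3K9ac for its chromosome. Up to the last peak of chromosome 5, peaks covered 1.64% and 0.710% in untreated replicates 1 and 2. In treated replicates 1 and 2 they covered 1.41% and 1.02%, so only untreated replicate 2 had a lower share in the window.

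Against the flanks H3K9me2 showed the reverse arrangement. Islands covered 2.80% and 10.9% of the window in untreated replicates 1 and 2 and 9.67% and 7.33% in treated replicates 1 and 2, and neither flank held an island in any library. The mean difference was 7.67 ± 3.56 percentage points (SD, n = 4, exact sign-flip permutation test, two-sided p = 0.12, the smallest possible). With no island in either flank, the difference was the window's own share and could not be negative. Its sign and p were thus set by the empty flanks. The nearest islands outside the window lay 697.5 to 1809.5 kb below it and 2181.5 to 2704.5 kb above it, so the calls in the window formed a patch apart from other islands. The window was not rich in H3K9me2 for its chromosome. Up to the last island of chromosome 5, islands covered 19.6% and 20.7% in untreated replicates 1 and 2. In treated replicates 1 and 2 they covered 22.3% and 18.7%, so every library had a lower share in the window.

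**Figure D2:**
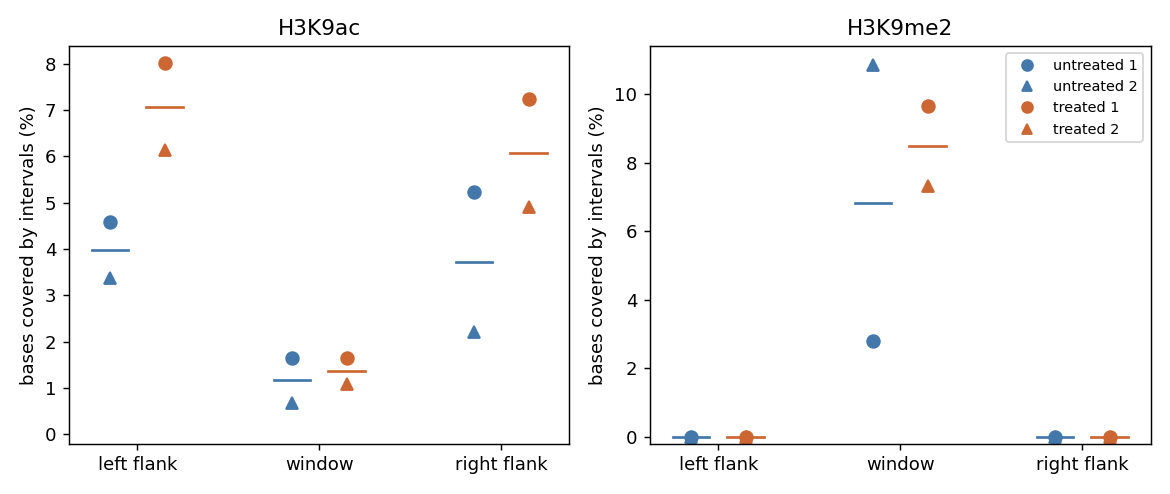
Share of bases covered by called intervals, in percent, in the left flank, the window and the right flank, for H3K9ac and H3K9me2. Each point is a library and each line the mean of 2 libraries. H3K9ac is lower in the window than in either flank in all 4 libraries, and H3K9me2 is at 0 in both flanks.

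Treated were then compared with untreated cells, to see whether calls in the window moved under nitric oxide. Over the whole window and in the full lists, H3K9ac differed by less than the spread between replicates. Covered length was 12.4 and 5.14 kb in untreated replicates 1 and 2 and 12.4 and 8.14 kb in treated replicates 1 and 2, so the groups overlapped. The means were 8.79 kb ± 5.16 and 10.3 kb ± 3.04 (SD, n = 2), a difference of 1.51 kb (exact permutation test, two-sided, p = 0.667). In a design of 2 libraries against 2 no p below 0.33 is possible. The difference turned to -2.15 kb without untreated replicate 2, to -0.647 kb without treated replicate 1, and to -14.4 ppm when each library was expressed relative to the bases its whole list covered. The lists differed in length, with 120630 and 59724 peaks in untreated replicates 1 and 2 and 79538 and 69151 in treated replicates 1 and 2. Cut to equal numbers of highest-scoring peaks, they gave means of 5.64 kb untreated and 9.365 kb treated (exact permutation p = 0.33). The groups then did not overlap, so their overlap in the full lists depended on list length.

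The sum hid unequal parts. These parts, the lower, middle and upper 250 kb, were set after the values were seen. In the upper 250 kb peaks covered 4.70 and 2.36 kb in untreated replicates 1 and 2 and 8.59 and 5.76 kb in treated replicates 1 and 2. Both treated libraries were higher there, with means of 3.53 kb ± 1.66 and 7.18 kb ± 2.00 (SD, n = 2), 2.03 times as much (exact permutation p = 0.33). In the lower 250 kb the order was opposite, with 3.62 and 0.747 kb untreated and 0.131 and 0.671 kb treated. The means were 2.19 kb ± 2.03 and 0.401 kb ± 0.382 (exact permutation p = 0.33). Untreated replicate 2 and treated replicate 2 were nearly equal there, and the difference in means came mostly from untreated replicate 1. That library, with the longest list, had 12 peaks there, against 3 in untreated replicate 2 and 1 and 5 in treated replicates 1 and 2. The 3 parts were not compared with lists of equal number. Across the genome 21.8% of tiles of 250 kb had both treated libraries above both untreated ones and 32.8% had both below, so either pattern alone is common. In the middle 250 kb the groups overlapped, at 4.12 and 2.03 kb untreated and 3.72 and 1.71 kb treated. The upper 250 kb held 37.8% and 45.9% of the covered bases of the window without treatment and 69.0% and 70.8% with it. How common such a shift within a window is over the genome was not tested. In the left flank both treated libraries were also higher, at 40.1 and 30.7 kb against 22.9 and 16.9 kb untreated (exact permutation p = 0.33). In the right flank, which borders the upper part, the groups overlapped, at 36.2 and 24.5 kb treated and 26.2 and 11 kb untreated (exact permutation p = 0.667).

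Most H3K9ac positions were seen in 1 library only. Merging the peaks of the 4 libraries gave 76 positions, of which 62 (81.6%) had a peak in 1 library: 27 in untreated replicate 1, 10 in untreated replicate 2, 17 in treated replicate 1 and 8 in treated replicate 2. All 4 libraries shared 7 positions (9.21%), against 6.6% of 222965 positions in the genome, and at least 3 libraries shared 10 (13.2%), against 9.22%. The lower 250 kb had 20 positions and none of these 10. Of the 4 positions found in 2 libraries, 3 were in both treated libraries and 1, at 140346252 to 140346581, in untreated replicate 1 and treated replicate 2. Genome shares of positions in 1 or 2 libraries are not given here, so neither count is shown to be particular to the window. Over the genome the treated libraries also shared more of their covered bases than the untreated ones, 0.562 against 0.231 of the bases covered in either.

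The leading H3K9ac region of the window lay at 140699283 to 140701357. Peaks covered 1434 and 930 bp of it in untreated replicates 1 and 2 and 1955 and 1821 bp in treated replicates 1 and 2, where the values of both first replicates are sums over 2 peaks. Both treated libraries had more bases in peaks, with means of 1182 bp ± 356 and 1888 bp ± 94.8 (SD, n = 2). It had the highest authors' score of the window in 3 of the 4 libraries, at 9.16, 79.13 and 59.81, and the next to highest, 7.80, in untreated replicate 1. Within their own lists these scores exceeded those of 91.9% of peaks in both untreated libraries, 92.4% in treated replicate 1 and 92.8% in treated replicate 2. The scores are the authors' own and were used only within a list. The region was not assigned to a gene, and SLC25A2 and TAF7 also lie among the clusters, so it need not be a protocadherin promoter.

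A pair of regions followed at higher positions. The region at 140729324 to 140730646 was 424 and 203 bp wide without and 1323 and 889 bp with treatment. The means were 314 bp ± 156 and 1106 bp ± 307 (SD, n = 2), 3.53 times as wide, the highest ratio among the 7 positions shared by all libraries. Its score of 8.01 was the highest of the window in untreated replicate 1. In the region at 140738789 to 140740454 peaks covered 377 and 632 bp untreated, the latter in 2 peaks, and 1666 and 774 bp treated, and it was in the treated reproducible set only. The means were 505 bp ± 180 and 1220 bp ± 631 (SD, n = 2). Both treated libraries had more bases in peaks, but they differed more from each other than the nearest libraries of the conditions did.

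The other 4 positions shared by all libraries lay on both sides of these. At 140579018 to 140580012 peaks were 712 and 431 bp wide untreated and 979 and 877 bp treated. At 140868748 to 140869422 they were 238 and 175 bp untreated and 505 and 313 bp treated. Both treated libraries were wider at each of these. At 140464294 to 140464722 widths were 238 and 178 bp untreated and 410 and 266 bp treated, yet the region was in the untreated reproducible set only. At 140566695 to 140567010 the groups overlapped, at 268 and 175 bp untreated and 287 and 214 bp treated. Of the 7 positions 6 (85.7%) thus had more bases in peaks in both treated libraries than in either untreated one, against 87.0% of 14717 such positions in the genome. Of all 10 positions in at least 3 libraries it was 6 (60%) against 77.9%, and 0 had fewer in both treated libraries against 1.33%. Neither share of positions with more treated bases exceeded that of the genome.

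The remaining 3 of these positions lacked a peak in 1 untreated library. That at 140571952 to 140572272 had no peak in untreated replicate 1, 175 bp in untreated replicate 2 and 287 and 114 bp in the treated libraries. That at 140593562 to 140593828 had 251 bp in untreated replicate 1, none in untreated replicate 2 and 194 and 124 bp treated, and it was in neither reproducible set. The highest of the 3, at 140888011 to 140888685, had 368 bp in untreated replicate 1, none in untreated replicate 2 and 587 and 281 bp treated, and it was in the treated set only. The groups overlapped at all 3.

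**Figure D3:**
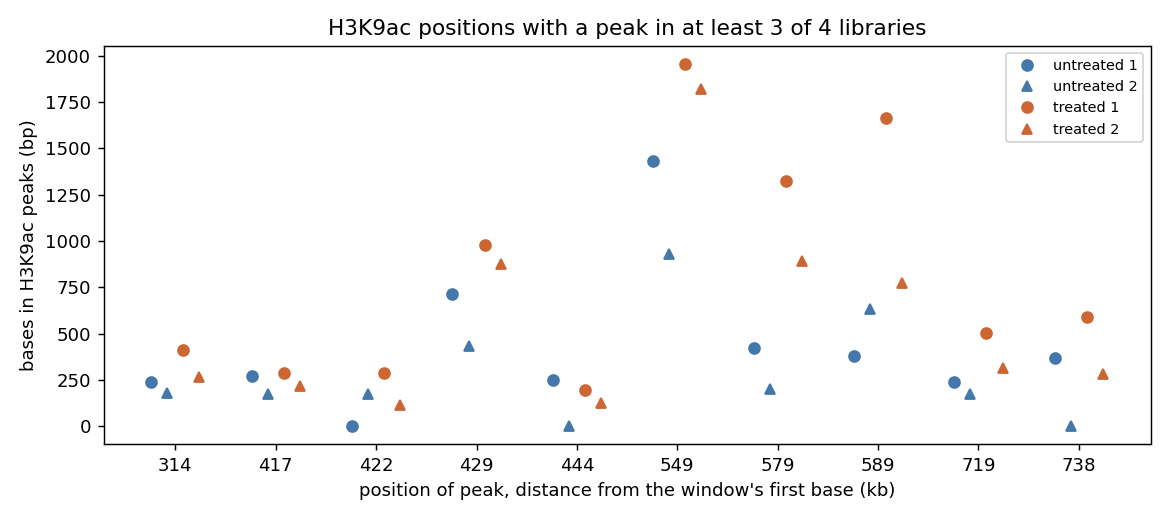
Bases in H3K9ac peaks, in bp and summed where a library had 2 peaks, at the 10 positions with a peak in at least 3 of 4 libraries, ordered by distance from the first base of the window in kb. Each point is a library, with 0 where it had no peak. Both treated libraries are higher at 6 positions, and every library is highest at 549 kb.

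Reproducible regions with no peak in the other condition were few. Of the 9 treated regions 2 (22.2%) met no peak in either untreated library, against 15.1% of all 21098 treated regions, and 0 of the 6 untreated regions met no treated peak, against 4.4% of 14377. The 2 gained regions lay at 140705790 to 140706394, with peaks of 605 and 484 bp in treated replicates 1 and 2, and at 140855375 to 140856056, with peaks of 483 and 630 bp. The authors' reproducibility scores, taken to be −log10 values of a rate of irreproducible calls, were 4.12 and 3.43. In the window the median treated region was 682 bp wide with a score of 3.43, against 1570.5 bp and 5.16 over the whole treated set. The median untreated region was 418 bp wide with a score of 2.13, against 1115 bp and 2.70 over its set. Both sets together marked 10 separate places, with 5 in both sets, 1 in the untreated and 4 in the treated set only. Stretches without a reproducible region of 102.1, 119.3 and 114.9 kb separated the places into groups, in addition to the empty lower 314.3 kb. The number of gained regions depended on the rule for overlap: when peaks had to cover at least 50% of a region, 6 of the 9 treated regions (66.7%) counted as gained, against 37.7% of all treated regions under that rule.

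In 10 kb steps, 45 of the 75 steps had an H3K9ac peak in some library and 30 had none in any. Steps with a peak numbered 32 and 16 in untreated replicates 1 and 2 and 18 and 21 in treated replicates 1 and 2, and 10 steps had a peak in all 4. Both treated libraries exceeded both untreated ones in 8 of the 45 steps (17.8%), against 15.6% of 130061 steps in the genome, and fell below them in 1 (2.22%), against 6.62%. No step differed by 10 percentage points or more between the nearest libraries of the conditions, against 2.05% of genome steps upward and 0.00461% downward. The step at 140700001 to 140710000 was covered to 10.3% and 7.66% untreated and 22.9% and 18.3% treated. The step at 140730001 to 140740000 had 3.41% and 3.93% untreated and 24.2% and 10.5% treated. Limma, a linear model with a spread shared across steps, called 0 of the 45 steps at a Benjamini-Hochberg adjusted p under 0.05, against 0.567% of genome steps called higher and 0.00538% lower. The smallest adjusted p in the window was 0.182, at 140730001 to 140740000, and 3 of the 45 steps (6.67%) had an unadjusted p under 0.05, against 9.09% of genome steps.

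In the full lists, H3K9me2 islands in the window differed more between libraries than between conditions. Covered length was 21.0 and 81.5 kb in untreated replicates 1 and 2 and 72.5 and 55.0 kb in treated replicates 1 and 2. Untreated replicate 2 was the highest and untreated replicate 1 the lowest, so the treated libraries lay between them. The means were 51.25 kb ± 42.8 and 63.75 kb ± 12.4 (SD, n = 2), and the exact permutation test, two-sided, gave p = 1. The difference of 12.5 kb turned to -17.8 kb without untreated replicate 1 and was 42.8, 3.75 and 21.3 kb without untreated replicate 2, treated replicate 1 and treated replicate 2. Cut to equal numbers of highest-scoring islands, the lists gave means of 34 kb untreated and 57.5 kb treated (exact permutation p = 0.33, the smallest possible). The treated libraries then no longer lay between the untreated ones.

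The islands seldom lay in the same place. They covered 168 kb in any library, of which 113.5 kb (67.6%) was in 1 library, 47.0 kb (28.0%) in 2, 7.50 kb (4.46%) in 3 and 0 kb in all 4. The 7.50 kb shared by 3 libraries lay at 140331001 to 140338500, in untreated replicate 2 and both treated replicates. This stretch was inside the widest island of treated replicate 1, at 140317501 to 140345000 (27.5 kb), whose score of 17.8 exceeded that of 92.6% of its list. Untreated replicate 2 had an island at 140318501 to 140338500 with the highest score of the window, 25.7, above 93.4% of its list, and its widest, 21.5 kb, at 140281001 to 140302500. Treated replicate 2 had its widest island, 24.5 kb, at 140388001 to 140412500, where no other library had one. The widest in untreated replicate 1 was 8.00 kb, at 140506001 to 140514000, and treated replicate 1 shared 6.50 kb of it.

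In overlap of covered bases the untreated pair had a Jaccard index of 0.057 in the window against 0.420 over the whole genome, and the treated pair 0.123 against 0.336. The closest pair in the window was untreated replicate 2 with treated replicate 1, at 0.305 against 0.381. Untreated replicate 1 and treated replicate 2 shared no base in the window, although their index over the genome, 0.425, was the highest of the 6 pairs. For each of the 6 pairs the index was lower in the window than over the genome. The same held for each of the 6 H3K9ac pairs, so this was not particular to H3K9me2.

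H3K9me2 was present in 28 of the 75 steps of 10 kb, and 47 had none. In 2 of the 28 steps both treated libraries had more than either untreated one (7.14%), against 6.2% of 64218 genome steps, and in 1 both had less (3.57%), against 7.4%. Steps separated by at least 10 points numbered 1 upward, against 5.42%, and 1 downward, against 6.39%. The upward step, at 140340001 to 140350000, was covered to 0% and 10% untreated and 50% and 50% treated. The downward step, at 140540001 to 140550000, was covered to 65% and 75% untreated and 0% and 0% treated. It was the only place where both untreated libraries shared an island, 5.50 kb at 140542001 to 140547500, and neither treated library had one. Neither passed the test: limma called 0 of the 28 steps, and 0.0% of genome steps in either direction, with a smallest adjusted p of 0.669 in the window. By limma 1 of the 28 steps (3.57%), the downward one, had an unadjusted p under 0.05, against 4.89% of genome steps.

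**Figure D4:**
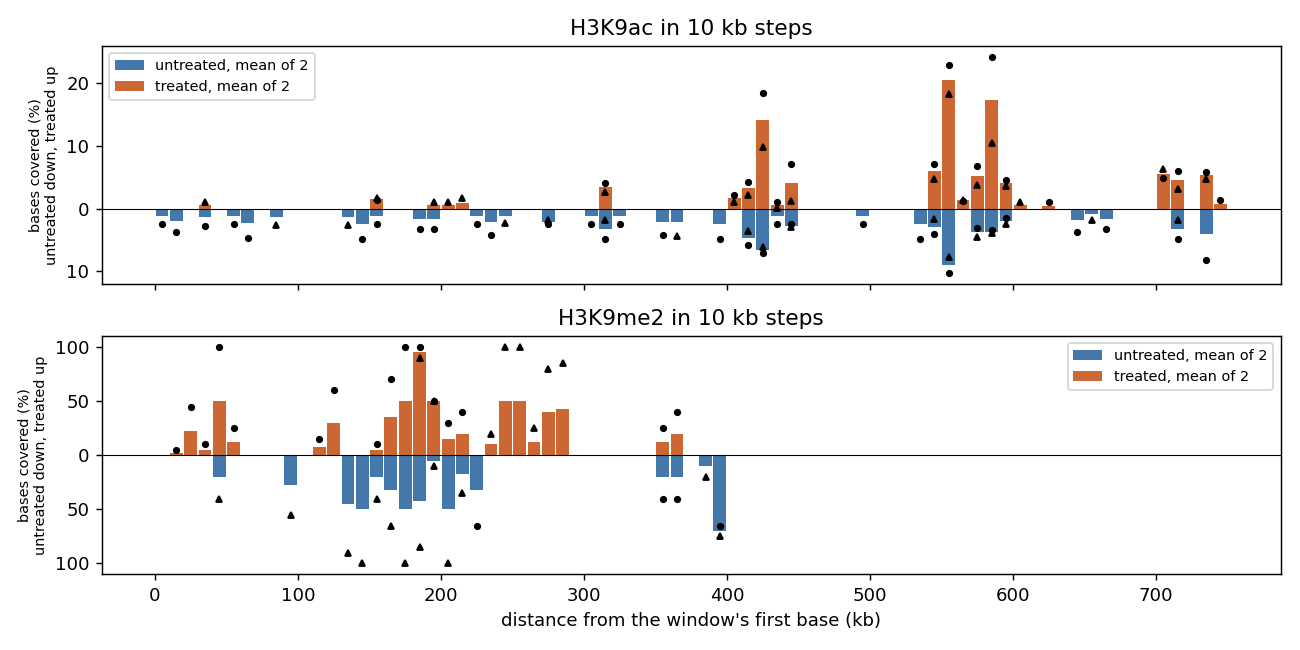
Share of each 10 kb step covered by called intervals, in percent, for H3K9ac and H3K9me2, against distance from the first base of the window in kb. Bars are means of 2 libraries, treated upward and untreated downward, and circles and triangles are replicates 1 and 2 where above 0. H3K9ac rises above 10% in few steps, all above 400 kb, and H3K9me2 lies below 400 kb with means that often rest on a single library.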

How the data were processed

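H3K9ac and H3K9me2 were profiled by chromatin immunoprecipitation and sequencing in 8 libraries, and 4 inputs were not analysed here. Per the submitters' processing notes, Trimmomatic 0.32, BWA 0.7.5, Picard, MACS2 and SICER were used with the build hg19. No source used here gives their settings. The authors deposited interval lists with a score per interval, and these scores were compared only inside their own list. In the 2 reproducible H3K9ac sets, made from both libraries of a condition, the deposited score was read as a −log10 rate, since its lowest value of 1.301 is that of 0.05. An H3K9me2 island's deposited end was taken as its last base. The lists hold no counts, so depth and precision are unknown.

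Intervals were read in Python 3.11.15 with pandas 2.3.3 and numpy 2.4.6. A shared base (1 bp) counted as overlap. A gained region was a treated reproducible region that met no untreated peak. Window sums were compared by exact permutation. The covered share was arcsine square root transformed, and limma 3.58.1 (R 4.3.3, trended prior variance) was fitted to all 10 kb steps of 23 chromosomes with an interval in at least 1 library of the mark, with Benjamini-Hochberg adjustment over all of them. Code was tested on simulated data. Regions named were all reproducible regions, positions in at least 3 libraries, leading peaks, shared or widest islands, and steps separated by at least 10 points. The 2-library positions named were added after their values were seen. The members and lists were chosen with earlier results of these data known. Genes were not placed, as the reference table is on GRCh38.p14.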

Additional observations from a re-analysis of the deposited data

How the results depend on the processing

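With both flanks empty in every library, the H3K9me2 share of window minus flanks could not turn negative. Window against flanks kept its direction for both marks under all 8 alternatives each. The H3K9ac difference between conditions over the window did not: it was -14.4 ppm of covered bases, -1.78 kb and -0.359 kb in the lower and middle 250 kb (chosen after seeing the data), and -2.15 to 5.16 kb with 1 library left out. For H3K9me2 that range was -17.8 to 42.8 kb. With lists cut to equal numbers of highest-scoring intervals, the differences were 3.725 kb for H3K9ac and 23.5 kb for H3K9me2. For H3K9ac the difference was 5.67 and 1.01 kb with the window widened and narrowed by 50 kb on each side. With the replicate block the differences stayed at 1.51 kb (0.006 and 3.01 kb within replicates 1 and 2) and 12.5 kb (51.5 and -26.5 kb). Gained and lost H3K9ac regions numbered 2, and 6 gained with 50% overlap required (66.7% of treated regions, 37.7% over the genome). They numbered 5 when absence was judged from the other reproducible set, 4 gained (44.4%, genome 45.1%) and 1 lost (16.7%, genome 7.28%), and 1 with sets of equal size, 1 of 4 gained (genome 2.62%).

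Limma called 0 steps of either mark, also with steps of 5 or 50 kb, with steps covered in 2 libraries and without transformation. Same-numbered libraries did not deviate together (correlation -0.014 for H3K9ac and -0.078 for H3K9me2 over genome steps), so the numbers were not taken as pairs. With the replicate block limma called 2 H3K9ac steps higher, at 140700001 and 140730001 (adjusted p = 0.0076 and 0.00048), which is 4.44% of the steps against 6.91% over the genome, and 0 for H3K9me2. Leaving out 1 library gave 0 to 17 H3K9ac steps, 17 lower without untreated replicate 2 (37.8%, genome 43.1%) and 6 lower without untreated replicate 1 (13.3%, genome 17.8%). It gave 0 to 6 H3K9me2 steps, 6 higher without treated replicate 2 (21.4%, genome 19.8%), 2 higher without treated replicate 1 (7.14%, genome 3.86%) and 2 lower without untreated replicate 1 (7.14%, genome 6.59%). In these fits 1 library stands for its condition and is assumed to vary like the other pair, and the steps called were at 0 in both libraries of that pair. Depth is unknown, so a stretch without calls is not shown to lack the mark.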

Other observations

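Among 3819 tiles of 750 kb that held any interval, the window had more H3K9ac than 63.0% and 60.1% of tiles in untreated replicates 1 and 2 and than 61.3% and 59.2% in treated replicates 1 and 2. Its H3K9ac was thus low against its flanks and slightly above the median tile of the genome. For H3K9me2 it exceeded 65.1% and 78.1% of tiles in the untreated and 72.0% and 75.3% in the treated libraries, while 49.6% to 55.7% of tiles had no island. In every library its H3K9me2 share was still below that of chromosome 5 as a whole.

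For H3K9ac the treated pair was the most alike in the window, with a Jaccard index of 0.466, and the untreated pair the least, at 0.132. Pairs across conditions had 0.190 to 0.239. Over the genome the treated pair had 0.562, the untreated pair 0.231 and pairs across conditions 0.268 to 0.340.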
